A study of Oryza sativa with 6 samples.

Results

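Wall-associated kinases (WAKs) are receptor-like kinases of the plant cell surface. The genes described here were the RAP loci (the locus numbers of the Rice Annotation Project) that a kinase list of the study places in a subfamily with a name starting with WAK. Only the locus numbers, subfamilies and descriptions of that list were used. Of the 127 entries of this kind, 76 carried a RAP locus, and all 76 had at least 1 probe among the 29690 loci on the arrays. By subfamily they were 2 loci listed only as WAK, 7 as WAK/LRK10L-1, 19 as WAKa, 25 as WAKb, 7 as WAKc and 16 as WAKL-OS. The remaining 51 entries had no RAP locus and were not analysed here.

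WAK proteins span the plasma membrane, with an extracellular part that can bind pectin, an acidic polysaccharide of the cell wall, often beside EGF-like repeats, and a serine/threonine kinase inside the cell. In Arabidopsis, WAK proteins bind pectin and its breakdown products, the oligogalacturonides, and act in cell expansion and in responses to pathogens and wounding. In rice the family is much larger than in Arabidopsis, and many members lie side by side in the genome. The supplementary list describes most loci only by domain, for example 40 of the 76 as proteins with a protein kinase domain and 15 as proteins with an EGF-like calcium-binding domain. For 6 loci the entry of the list was No Hit, namely Os02g0807800, Os04g0368000, Os08g0501200, Os09g0561000, Os10g0178800 and Os12g0265900. No function was therefore assigned to a single locus beyond its description.

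Roots of 6-day-old seedlings of Oryza sativa L. cv. TN-67 were exposed to Hg or to water (control). Long-term exposure lasted 24 h, and RNA from exposures of 1 h and 3 h was pooled for short-term exposure. The Hg dose is 25 µM in the study's methods and 25 mM in the sample labels. The methods name root tips as the source of RNA and the labels name roots, and it is not stated whether the control RNA was the same at both exposures. Each of the 6 arrays, 3 biological replicates for each exposure, carried RNA of Hg-treated roots in Cy5 and RNA of control roots in Cy3. The dyes were not swapped, so that a dye bias of a probe enters each of its ratios in the same direction. The long-term arrays lay on 1 slide of their own and the short-term arrays on 2 others, so that slide and exposure time cannot be told apart. Hg channels had median processed signals of 336 to 410 on the long-term and 207 to 309 on the short-term arrays. The log2 ratios of all genes correlated between arrays of an exposure with r of 0.89 to 0.93 at long-term and 0.91 to 0.92 at short-term exposure. The 4 root aquaporin genes used as tissue markers were well above background in both channels on all arrays, and 3 of them changed with Hg. OsNIP2;1 (Os02g0745100) had mean log2 ratios of 1.83 at long-term and -1.51 at short-term exposure, OsPIP2;5 (Os07g0448400) of 2.09 and -1.35 and OsPIP2;3 (Os04g0521100) of 0.49, not called, and -1.61. Of 2 green tissue markers, photosystem I subunit V (Os09g0481200) had signals of 564 to 866 in Hg and 144 to 173 in control roots at long-term exposure, and of 533 to 826 in Hg and 153 to 265 in control roots at short-term exposure, whereas the photosystem II chlorophyll a/b binding protein gene (Os03g0592500) was not called at either exposure. The part of these genes in the WAK results was not tested, and in RNA of whole tissue fewer cells of a type and less RNA per cell cannot be told apart.

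Most WAK genes gave little signal in these roots. A gene was tested where its brightest probe had a processed signal (background-subtracted and dye-normalized, in the scanner's units) of at least 100 in 1 channel of 1 array, and 35 of 76 WAK loci (46.1%) passed, against 73.6% of all 29690 loci. For the 41 loci below this level the highest signal ranged from 9.67 to 98.8 (median 15.1), and 31 loci were not well above background in any channel on any array. Os04g0308100, the locus described as wall-associated kinase 4, was among these, with signals of at most 10.2. All 7 WAK/LRK10L-1 loci were tested, and so were 8 of 16 WAKL-OS, 10 of 25 WAKb, 7 of 19 WAKa, 2 of 7 WAKc and 1 of the 2 other loci. In 16 of the 35 loci both channels were well above background on all 6 arrays. For 12 loci a signal of 100 was reached only in the Hg channel and for 1 only in the control channel. Because such a locus enters the test through the channel where it is high, counts over the tested loci are given as a description.

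Counted over the tested loci, upregulated WAK genes outnumbered downregulated ones at both exposures. A gene was called where its mean log2 ratio of Hg over control had an adjusted p under 0.05 and a size of at least 2-fold. After 24 h, 9 of the 35 genes had risen (25.7%) and 2 had fallen (5.71%), against 9.03% and 6.03% of all genes tested. After the short exposure 12 had risen (34.3%) and 1 had fallen (2.86%), against 11.6% and 8.1% of all genes tested. The median log2 ratio of the tested WAK genes was 0.22 at long-term and 0.49 at short-term exposure, and that of all genes was -0.065 and -0.13. The split by channel bears on these shares. Of the 12 loci that reached the minimum signal only in the Hg channel, 5 rose at long-term and 8 at short-term exposure, and of all genes that passed in this way 49% and 57.9% rose. Of the 23 loci that reached it in the control channel, 4 rose and 2 fell at long-term exposure, against 6.91% and 6.12% of all such genes, and 4 rose and 1 fell at short-term exposure, against 9.14% and 8.39%. The signals of the 3 Hg samples did not overlap with those of the 3 control samples in any of the 11 long-term and 13 short-term WAK calls, and neither did they in 98.3% of all genes called at long-term and 87.5% of all called at short-term exposure. Taken over all 76 loci with no minimum signal, 10 rose (13.2%) and 3 fell (3.95%) at long-term exposure, against 8.14% and 6.33% of 29687 genes, and 15 (19.7%) and 1 (1.32%) at short-term exposure, against 9.83% and 6.66% of 29663 genes. Among the 16 loci well above background throughout, 3 rose and 2 fell at long-term exposure, with 3 and 1 at short-term exposure. The share of all genes under this condition was not counted, so these counts have no background beside them.

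These counts changed with the processing. With normexp background correction, an offset of 50 and loess, 1 of 35 WAK genes rose at long-term exposure, against 6.43% of all genes tested, and 6 rose at short-term exposure, against 9.56%, and none fell. Without long-term replicate 3 the long-term count of upregulated genes was 5. Under all settings tried, 4 short-term calls held, those of Os02g0807900, Os09g0561600, Os05g0550800 and Os08g0501500, and no long-term call did.

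**Figure D1:**
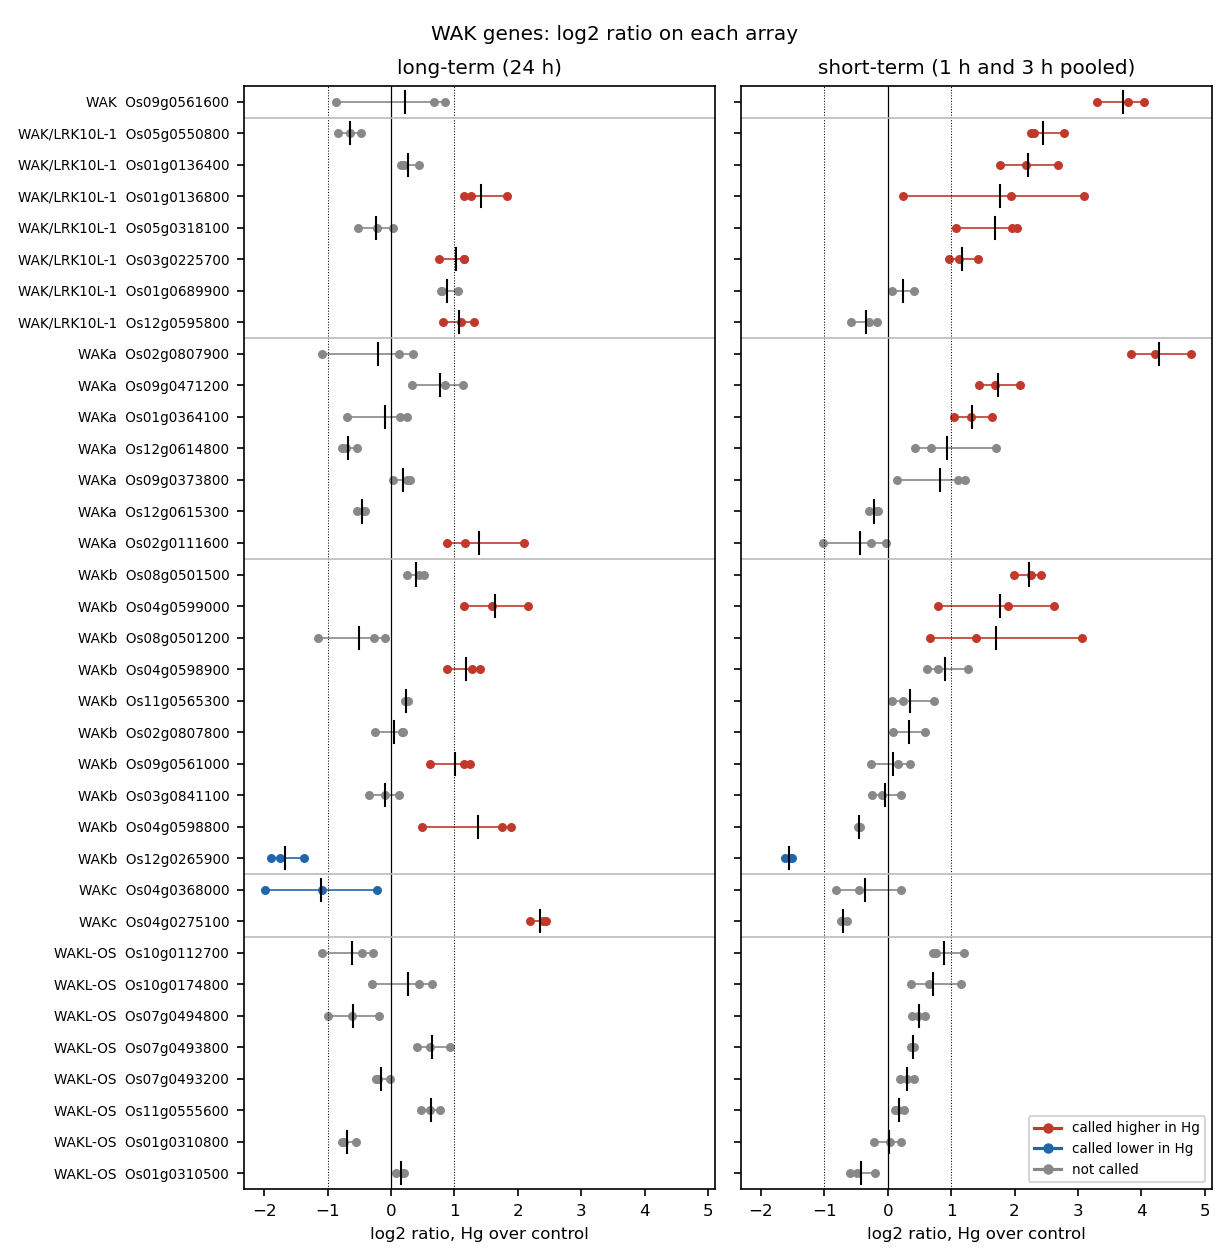
Log2 ratio of Hg over control on each array (points, 3 per exposure) for the 35 tested WAK genes by subfamily, with the long-term arrays left and the short-term arrays right. Black ticks mark the mean and dotted lines a 2-fold change. At long-term exposure 9 genes are called higher and 2 lower in Hg, and at short-term exposure 12 higher and 1 lower, and no WAKL-OS gene is called at either.

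The highest WAK ratios were those of short-term exposure, led by Os02g0807900, a WAKa locus on chromosome 2 described as a serine threonine kinase. Its signals at long-term exposure were 97.6, 49.8 and 79.7 in Hg and 76.6, 106 and 72.99 in control roots, and at short-term exposure 511, 763 and 852 in Hg and 27.5, 53.4 and 31.1 in control roots. The ranges of both channels overlapped at long-term exposure, and at short-term exposure the Hg samples stood far above the control samples. The mean log2 ratio was -0.20 ± 0.30 (standard error of the fit, n = 3 arrays) at long-term exposure (adjusted p = 0.571) and 4.28 ± 0.30 at short-term exposure (adjusted p = 8.67e-05). On 2 of the 3 short-term arrays its control signal was well above background. Its neighbour by locus number, Os02g0807800 (WAKb), was far brighter, with control signals of 1166, 996 and 813 at long-term exposure, and was called at neither, with mean log2 ratios of 0.040 ± 0.14 at long-term and 0.33 ± 0.17 at short-term exposure, where the spot on 1 of 3 arrays was left out as an outlier.

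Os09g0561600, a locus listed only as WAK and described by its protein kinase domain, followed. At short-term exposure its signals were 140.4, 164 and 167 in Hg and 10.2, 16.7 and 10.2 in control roots, and no control sample was well above background. The ratio was therefore given as a bound, and in the main processing Hg samples were at least 9.4-fold higher than control samples. The measured log2 ratio had an adjusted p of 0.00019 in limma. With normexp and loess the log2 ratio was 1.49, which is below this bound. Such bounds were computed on channel signals after loess and between-array normalization, with the dim channel at the higher of its own signal and the lowest signal well above background, were taken no higher than the measured fold, and are open to dye bias. At long-term exposure neither channel was well above background on any array. In the same stretch of chromosome 9, the WAKb locus Os09g0561500, described by an EGF-like calcium-binding domain, had short-term signals of 20.7, 50.1 and 70.03 in Hg and 5.68, 4.22 and 10.02 in control roots and was not tested. The WAKb locus Os09g0561000 had long-term signals of 896, 656 and 766 in Hg and 406, 427 and 322 in control roots and was called at long-term exposure only, with a mean log2 ratio of 1.00 ± 0.16 at long-term (adjusted p = 0.00211) and 0.086 ± 0.16 at short-term exposure. Its call was lost without long-term replicate 1 or 3.

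In the WAK/LRK10L-1 subfamily, where all 7 genes were tested, 3 rose at long-term exposure and 5 at short-term exposure, and none fell. Of all genes tested, 9.03% and 11.6% rose. Os01g0136400, Os01g0136800 and Os05g0318100 reached the minimum signal only in the Hg channel. Of all genes that passed in this way, 49% rose at long-term and 57.9% at short-term exposure. Os05g0550800 had the highest short-term ratio of them. At long-term exposure its Hg signals of 356, 339 and 312 lay below its control signals of 559, 604 and 433, with a mean log2 ratio of -0.65 ± 0.12 (SE, n = 3) that did not reach 2-fold (adjusted p = 0.00438). At short-term exposure the order was turned, with signals of 665, 955 and 728 in Hg and 139, 192 and 105 in control roots and a mean log2 ratio of 2.45 ± 0.12 (adjusted p = 4.21e-05). Each of its 12 signals was well above background, and its control signals were higher on the long-term than on the short-term arrays. Os01g0136400 had short-term signals of 200.05, 263 and 219.5 in Hg and 31.1, 76.9 and 48.2 in control roots, with mean log2 ratios of 0.27 ± 0.17 at long-term and 2.21 ± 0.17 at short-term exposure (adjusted p = 0.000106). Os05g0318100 likewise was at -0.24 ± 0.20 at long-term exposure and rose at short-term exposure, by 1.69 ± 0.20 (adjusted p = 0.000554), with 1 of its 3 short-term control signals well above background.

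Os03g0225700 was upregulated at both exposures by about the same amount and was bright on every array. Its signals were 814, 1022 and 804 in Hg and 483, 462 and 360.3 in control roots at long-term exposure, and 1185, 1126 and 776 in Hg and 542, 419.6 and 397 in control roots at short-term exposure. The mean log2 ratio was 1.02 ± 0.12 at long-term (adjusted p = 0.000719) and 1.17 ± 0.12 at short-term exposure (adjusted p = 0.000307), and the long-term call was lost without long-term replicate 2 or 3. Os01g0136800 was also called at both exposures, with long-term signals of 142, 180.5 and 139 in Hg and 59.3, 81.6 and 38.8 in control roots, 2 of the control signals well above background. At short-term exposure its Hg signals of 60.5, 73.1 and 19.8 stood beside control signals of 7.05, 18.9 and 16.8. No control signal but 2 of the 3 Hg signals were well above background, so that the bound was at least 2.58-fold in the main processing. The measured log2 ratio had an adjusted p of 0.0161 in limma, and with normexp and loess it was 0.49. Its log2 ratios spread widely over the short-term arrays, at 3.10, 1.95 and 0.24. The long-term call (log2 ratio 1.41 ± 0.48, adjusted p = 0.0393) was lost without any 1 of the long-term replicates or without short-term replicate 2, and the short-term call without short-term replicate 1 or 2. Its short-term log2 ratio was 1.096 without short-term replicate 1 and 2.53 without replicate 3.

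Os12g0595800 was the WAK/LRK10L-1 gene upregulated at long-term exposure only. Its signals at that exposure were 1306, 2017 and 1842 in Hg and 742, 940.03 and 746 in control roots, against 283, 426 and 265 in Hg and 346, 478 and 394 in control roots at short-term exposure. The mean log2 ratio was 1.07 ± 0.12 (adjusted p = 0.000585) at long-term and -0.34 ± 0.12 at short-term exposure. The long-term call was lost without long-term replicate 3. 4 probes named this locus, and their long-term log2 ratios were 1.07, 0.85, 1.11 and 1.03. The remaining WAK/LRK10L-1 gene, Os01g0689900, was the brightest of the subfamily, with long-term signals of 2137, 2396 and 2322 in Hg and 1240.3, 1369.5 and 1119 in control roots. It rose by less than 2-fold at long-term exposure, at 0.88 ± 0.10 (adjusted p = 0.00117), and was at 0.24 ± 0.13 over the 2 short-term arrays whose spot was not an outlier. Its 4 probes disagreed at short-term exposure, where the dimmest had a log2 ratio of 1.06 (adjusted p = 0.000333) and the others 0.24 to 0.38.

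**Figure D2:**
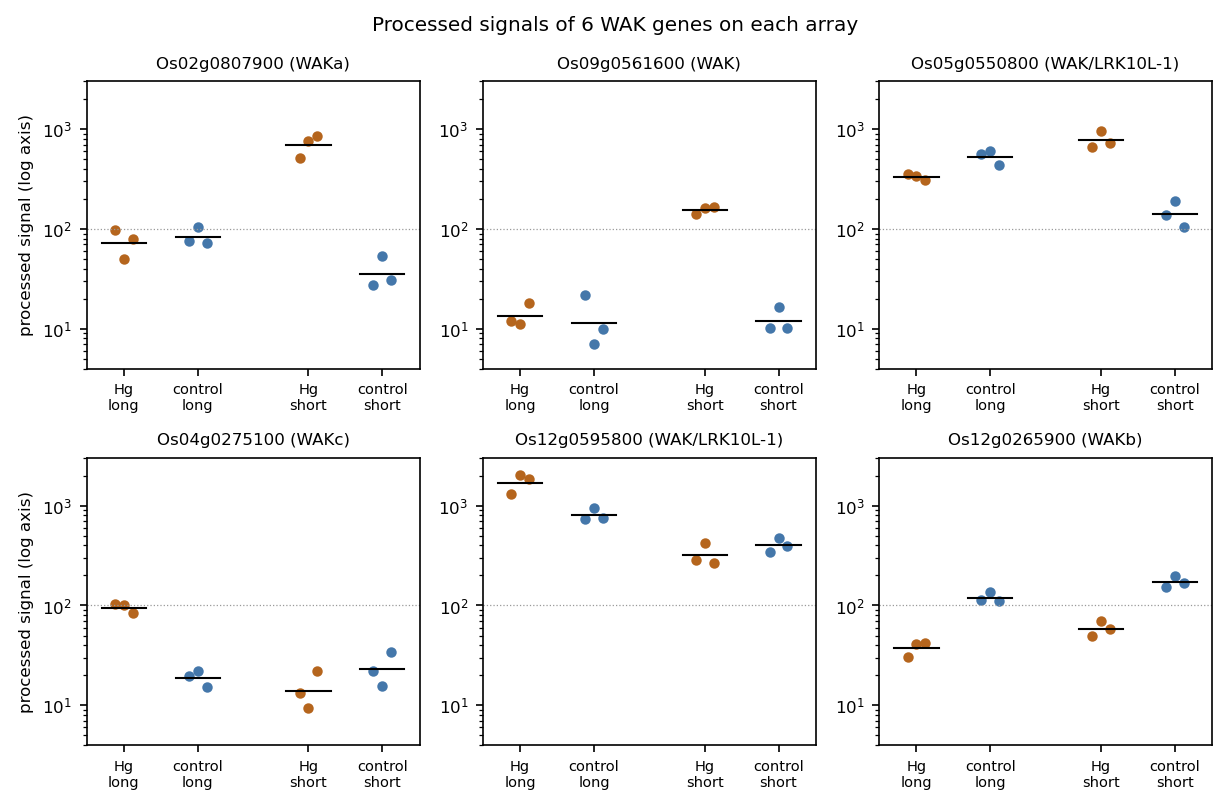
Processed signals (log axis) of 6 WAK genes in the Hg and control channels of the long-term and short-term arrays (points, 3 arrays each, with geometric means as lines and the minimum signal of 100 dotted). Os04g0275100 and Os12g0595800 stand above their controls at long-term exposure, Os02g0807900, Os09g0561600 and Os05g0550800 at short-term exposure, and Os12g0265900 lies below its controls at both.

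Of the 7 tested WAKa genes, 1 rose at long-term exposure and 3 at short-term exposure, against 9.03% and 11.6% of all genes tested. The called genes Os01g0364100, Os02g0111600 and Os09g0471200 reached the minimum signal only in the Hg channel. Of all genes that passed in this way, 49% rose at long-term and 57.9% at short-term exposure. Besides Os02g0807900, Os09g0471200 had short-term signals of 100.1, 197 and 133 in Hg and 23.6, 72.8 and 41.2 in control roots with mean log2 ratios of 0.77 ± 0.18 at long-term exposure (adjusted p = 0.00948), short of 2-fold, and 1.74 ± 0.18 at short-term exposure (adjusted p = 0.000307). Os01g0364100 had short-term signals of 206, 185 and 115 in Hg and 83.1, 59.3 and 55.3 in control roots with mean log2 ratios of -0.098 ± 0.20 at long-term and 1.33 ± 0.20 at short-term exposure (adjusted p = 0.00139). Os02g0111600, described by an EGF-like calcium-binding domain, showed the other order. Its long-term signals were 81.6, 82.4 and 110.2 in Hg and 36.5, 44.5 and 25.7 in control roots, with a mean log2 ratio of 1.38 ± 0.27 (adjusted p = 0.00479), and 2 of its 3 long-term control signals were well above background. At short-term exposure neither channel was well above background on any array. Os12g0614800 was called at neither exposure, at -0.68 ± 0.23 at long-term and 0.94 ± 0.23 at short-term exposure, but the 2 ratios differed.

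Of the 10 tested WAKb genes, 4 rose and 1 fell at long-term exposure, against 9.03% and 6.03% of all genes tested. At short-term exposure 3 rose and 1 fell, against 11.6% and 8.1%. The upregulated genes Os04g0598800, Os04g0599000 and Os08g0501200 reached the minimum signal only in the Hg channel. Of all genes that passed in this way, 49% rose at long-term and 57.9% at short-term exposure. 3 of the long-term genes carry neighbouring locus numbers on chromosome 4, Os04g0598800 and Os04g0598900, both described as wall-associated kinase-like proteins, and Os04g0599000. At long-term exposure the signals of Os04g0598800 were 80.1, 119.9 and 111 in Hg and 57.3, 32.4 and 33.1 in control roots, those of Os04g0598900 72.4, 81.2 and 85.8 in Hg and 39.4, 33.5 and 32.4 in control roots, and those of Os04g0599000 148, 167 and 176 in Hg and 48.8, 75.1 and 39.5 in control roots. Their mean long-term log2 ratios were 1.37 ± 0.26 (adjusted p = 0.00391), 1.19 ± 0.15 (adjusted p = 0.000909) and 1.64 ± 0.34 (adjusted p = 0.00642). At short-term exposure only Os04g0599000 of the 3 was called, and whether the neighbours differed from each other was not tested. Os04g0599000 was upregulated, with signals of 48.8, 52.5 and 32.3 in Hg and 7.91, 14.04 and 18.7 in control roots. None of the control signals was well above background, and the bound was at least 2.85-fold in the main processing. The measured log2 ratio had an adjusted p of 0.00401 in limma, and with normexp and loess it was 0.43. Os04g0598900, with signals of 206, 47.05 and 37.6 in Hg and 133, 27.02 and 15.6 in control roots, of which replicate 1 stood apart in both channels, was at 0.90 ± 0.15 (adjusted p = 0.00214), short of 2-fold. Os04g0598800 had Hg signals of 13.3, 23.99 and 44.3, none well above background, beside control signals of 18.4, 32.4 and 60.7. A second probe of Os04g0599000 was called upregulated at both exposures too, at 2.03 at long-term and 1.32 at short-term exposure. The probes of Os04g0598800 and of its neighbours were designed to different parts of their transcripts (5'UTR and coding sequence for Os04g0598800, coding sequence and 3'UTR for the other 2), and how far a probe also binds transcripts of a neighbour was not tested.

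Os08g0501500 was the WAKb gene with the highest short-term ratio among those well above background on all arrays, with signals of 253, 498 and 258 in Hg and 52.8, 93.1 and 64.7 in control roots, and mean log2 ratios of 0.40 ± 0.10 at long-term and 2.22 ± 0.10 at short-term exposure (adjusted p = 3.63e-05). Os08g0501200, from the same stretch of chromosome 8, was close to background. Its short-term Hg signals were 17.7, 123 and 35.9, of which only the second was well above background. Its control signals were 11.2, 14.7 and 13.7, for a bound of at least 2.73-fold in the main processing. The measured log2 ratio had an adjusted p of 0.0129 in limma, and with normexp and loess it was 0.45. Without short-term replicate 2 its short-term log2 ratio was 1.03, against 1.70 with all 3 arrays. At long-term exposure neither channel reached well above background. Os12g0265900, listed with No Hit in place of a description, was downregulated at both exposures. Its signals were 30.6, 40.9 and 42.4 in Hg and 113, 138 and 109.99 in control roots at long-term exposure, and 49.4, 69.5 and 57.5 in Hg and 153, 197 and 168 in control roots at short-term exposure. The mean log2 ratio was -1.67 ± 0.11 (adjusted p = 0.000137) at long-term and -1.56 ± 0.11 (adjusted p = 8.08e-05) at short-term exposure, and the 3 arrays of each exposure lay close together.

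Both tested WAKc genes were called at long-term exposure, in opposite directions, where 15.1% of all genes tested were called. The upregulated one, Os04g0275100, reached the minimum signal only in the Hg channel, and 49% of all genes that passed in this way rose. Os04g0275100, described by an EGF-like calcium-binding domain, had long-term signals of 103, 101 and 83.6 in Hg and 19.5, 22.00 and 15.3 in control roots. No control sample was well above background, but the lowest signal well above background replaced its control signal on 0 arrays. The bound of a 5.09-fold higher Hg signal was therefore the same as the measured ratio, and both rest on control signals near background. The measured log2 ratio had an adjusted p of 5.39e-05 in limma. With normexp and loess the long-term log2 ratio was 0.78, short of 2-fold. At short-term exposure its signals of 13.3, 9.47 and 21.9 in Hg and 22.1, 15.8 and 34.3 in control roots were all not well above background. Os04g0368000, listed with No Hit, had long-term signals of 1051, 419 and 617 in Hg and 1230.4, 1659 and 1314 in control roots. Its log2 ratios were -0.23, -1.98 and -1.09, with a mean of -1.10 ± 0.33 (adjusted p = 0.0261). The call was lost without long-term replicate 2 or 3 and with each exposure fitted alone. A second probe was lower too, at -1.59 (adjusted p = 0.00932).

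None of the 8 tested WAKL-OS genes was called at either exposure, against 15.1% of all genes tested called in either direction at long-term and 19.7% at short-term exposure, as none of their mean log2 ratios, -0.69 to 0.65 at long-term and -0.43 to 0.89 at short-term exposure, reached 2-fold. In limma 5 of the 8 had an unadjusted p under 0.05 at long-term exposure (2 of them higher in Hg) and 6 at short-term exposure (5 higher). Such values were common, as many genes had even an adjusted p under 0.05 with no fold threshold. Of all genes tested, 28.5% were then higher and 35.1% lower at long-term exposure, and 27.6% and 40.8% at short-term exposure. The brightest of them, Os01g0310500, had long-term signals of 1476, 1926 and 1704 in Hg and 1391, 1678 and 1491 in control roots. Its mean log2 ratio was 0.16 ± 0.090 at long-term and -0.43 ± 0.090 at short-term exposure (adjusted p = 0.00558), which was short of 2-fold in Hg over control. Over all subfamilies, 12 tested genes were called in no comparison, with mean log2 ratios of -0.69 to 0.88 at long-term and -0.43 to 0.83 at short-term exposure.

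3 genes were upregulated at both exposures (Os01g0136800, Os03g0225700 and Os04g0599000) and 1 was downregulated at both (Os12g0265900). Another 6 were upregulated at long-term only and 9 at short-term only, 1 was downregulated at long-term only, and none was called in opposite directions. The shares of all genes with these patterns were not counted, so these counts only describe the tested loci. Os01g0136800 and Os04g0599000 reached the minimum signal only in the Hg channel. The difference itself, the long-term minus the short-term log2 ratio, was tested in the same fit. It was positive for 4 of the 35 genes (11.4%) and negative for 11 (31.4%), against 9.2% and 10.1% of all genes tested, with a median of -0.35 over the tested WAK genes and 0.036 over all genes. In the 12 loci that reached the minimum signal only in the Hg channel, the difference was positive for 3 and negative for 5. Of all such genes, these shares were 18.5% and 30.3%. In the 23 loci with this signal in the control channel the difference was positive for 1 and negative for 6, against 8.71% and 9.07%. Over all 76 loci with no minimum signal it was positive for 5 (6.58%) and negative for 13 (17.1%), against 7.48% and 8.71% of 29660 genes. Os02g0807900 (-4.48), Os09g0561600 (-3.49) and Os05g0550800 (-3.11) had the lowest differences, and Os04g0275100 had the highest (3.05, adjusted p = 0.000188). 3 genes were called in the difference alone, with ratios below 0 at long-term and above 0 at short-term exposure. They were the WAKa gene Os12g0614800 at -1.62 ± 0.32 (adjusted p = 0.00746) and the WAKL-OS genes Os10g0112700 at -1.50 ± 0.24 (adjusted p = 0.00344) and Os07g0494800 at -1.09 ± 0.21 (adjusted p = 0.00602).

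The order of the signals themselves was compared between exposures. All 4 genes with a positive difference had Hg signals that were higher on every long-term than on every short-term array, as had 94.2% of all genes with a positive difference, and 2 had control signals of the same order, as had 44.7%. Of the 11 genes with a negative difference, 8 had Hg signals that were lower on every long-term than on every short-term array, against 66.2% of all genes with a negative difference. Control signals were higher on every long-term array for 4 of the 11, against 44.9% of all such genes. They were lower on every long-term array for 1 (Os01g0364100), against 2.98%, and overlapped for 6, against 52.1%. Os07g0494800 and Os12g0614800 overlapped in both channels. Os05g0550800 was one of the 3 genes whose Hg signals were lower and control signals higher on every long-term array. The shares of all genes with a given order in both channels together were not counted. Signals of different arrays share no common scale, so these orders are descriptions. For Os09g0561600 and Os08g0501200 at long-term exposure, and for Os02g0111600 and Os04g0275100 at short-term exposure, neither channel was well above background, so that their differences include a ratio of signals near background.

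**Figure D3:**
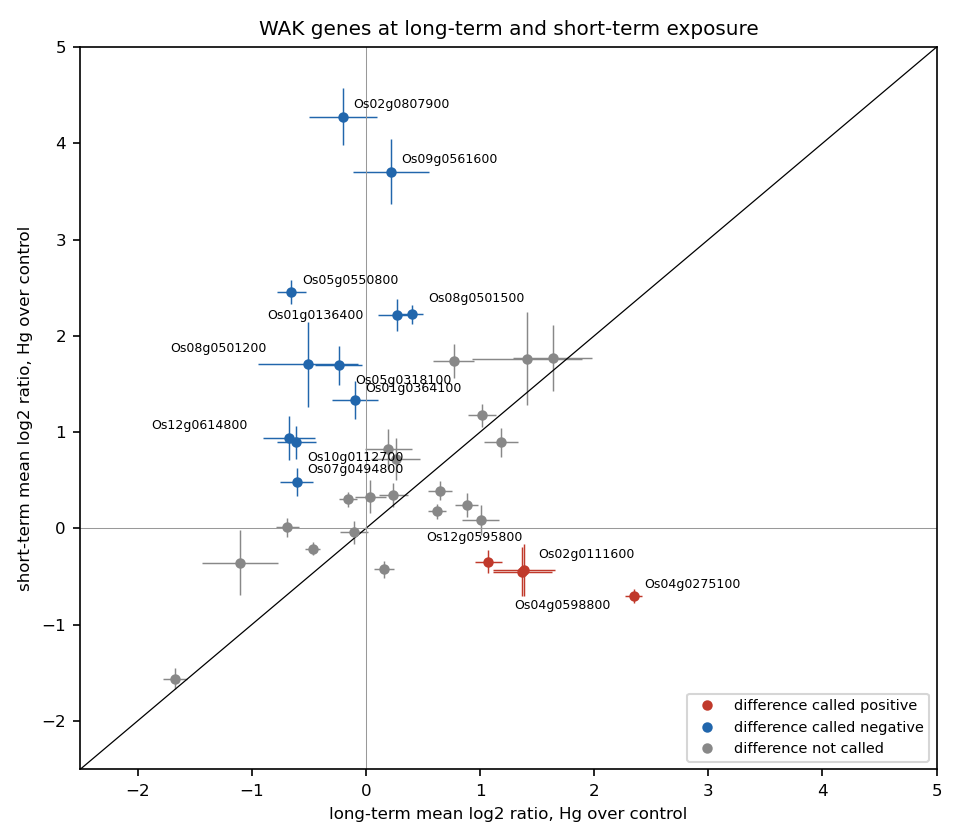
Mean log2 ratio of Hg over control at long-term (x axis) and short-term exposure (y axis) for the 35 tested WAK genes, with standard errors as bars and the line of equal ratios. The 11 genes with a called negative difference lie above the line and the 4 with a called positive difference below it.

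Counted over the tested loci, LRK10L-2 genes, a subfamily of the same kinase list that shares the LRK10L name, had higher shares of upregulated genes than the WAK genes. Of 36 LRK10L-2 loci 11 were tested, of which 4 were upregulated at long-term (36.4%) and 8 at short-term exposure (72.7%) and none downregulated. Of all genes tested, 9.03% rose at long-term and 11.6% at short-term exposure. The split by channel was not made for LRK10L-2 or the other receptor-like kinase genes. How far their shares depend on the minimum signal was therefore not tested. All other receptor-like kinase genes together, LRK10L-2 included, had 525 tested genes. At long-term exposure 86 of these rose (16.4%) and 30 fell (5.71%), and at short-term exposure 119 rose (22.7%) and 57 fell (10.9%). The share of WAK genes downregulated at long-term exposure was thus the same as in the other receptor-like kinases, and whether the other shares differ was not tested. The difference of the exposures was positive for 81 (15.4%) and negative for 78 (14.9%) of these 525 genes, where the 35 WAK genes had 4 (11.4%) and 11 (31.4%). Of the 11 tested LRK10L-2 genes it was positive for 0 and negative for 4 (36.4%), so a high negative share was not particular to the WAK genes.

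**Figure D4:**
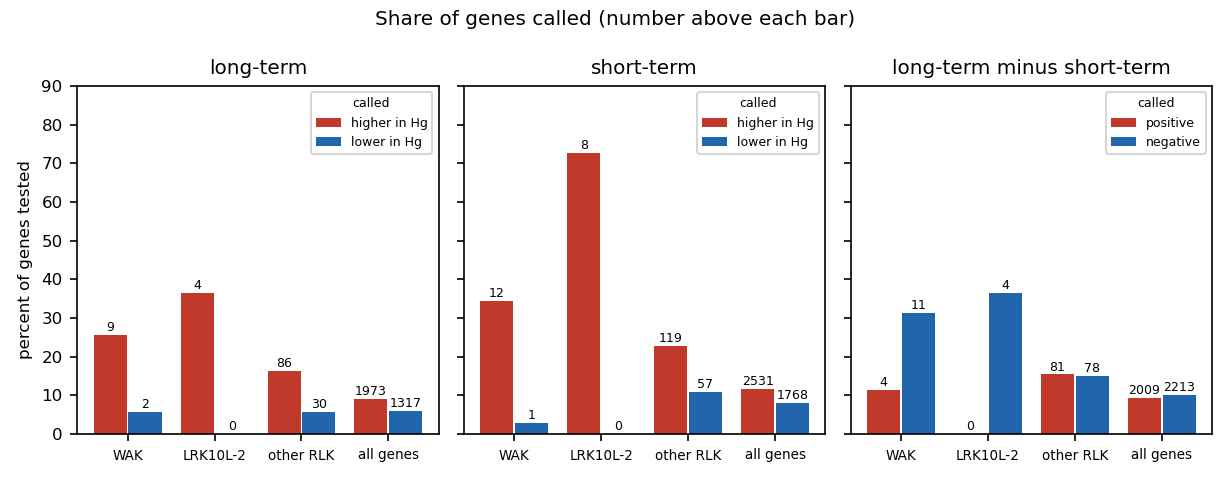
Percent of tested genes called (number above each bar) for WAK genes, LRK10L-2 genes, all other receptor-like kinase genes (RLK) and all genes, with 1 panel for each exposure and 1 for their difference. Red bars are higher in Hg or positive, blue bars lower or negative. The upregulated WAK share is 25.7% at long-term and 34.3% at short-term exposure.

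Genes on either side of WAK proteins were counted from lists of the study, enzymes that make or cut pectin on the wall side and the mitogen-activated protein (MAP) kinase cascade, which relays signals of surface receptors, inside the cell. Of 74 tested pectin enzyme genes, 11 rose and 7 fell at long-term exposure, and 6 rose and 17 fell at short-term exposure, with median log2 ratios of -0.24 and -0.45. Among them the pectin methyl esterase genes, whose products free the acidic groups of pectin, counted 5 up and 1 down of 13 at long-term and 1 up and 2 down at short-term exposure. The polygalacturonase genes (GH28), whose products cut pectin, counted 4 up and 6 down of 22 at long-term and 1 up and 8 down at short-term exposure. Of 85 tested MAP kinase cascade genes, 4 rose and 2 fell at long-term exposure, and 16 rose and 4 fell at short-term exposure, with median log2 ratios of -0.022 and 0.088. Of all genes tested, 9.03% rose and 6.03% fell at long-term exposure, and 11.6% rose and 8.1% fell at short-term exposure.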

How the data were processed

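The authors deposited 1 Agilent Feature Extraction file per array. Its intensity values, as deposited, were background-subtracted, spatially detrended and dye-normalized (linear and lowess) by that software (version 10.7.1.1), per the file headers. The deposited log10 ratios were made by the same software, per the file headers. In the table deposited by the authors, log2 values lie within 0.001 of the processed Cy5 over Cy3 signals on that scale for at least 41894 of 41906 probes per array. Control and outlier spots were left out, spots of a probe averaged, and each locus represented by its brightest probe with a signal of at least 100 in 1 channel, which left 21859 genes. Os01g0689900 and Os02g0807800 thereby lack the first short-term replicate. Log2 ratios of the 6 arrays were fitted with 1 coefficient per exposure in limma (3.58.1, R 4.3.3), with moderated statistics and Benjamini-Hochberg adjustment over all genes tested. It was tested on simulated data. Calls needed an adjusted p under 0.05 and 2-fold. Every WAK locus called in a comparison was named. Members and lists were chosen with earlier results of these data known. The alternatives concern the background correction, the source of values, centring, filters, probes, the fit, blocks, thresholds and each array. Normexp used median signals, as the files used give no mean signals. The number of arrays limits the precision, and depth in reads does not apply. The reference gene table matched 0 of the 76 loci, and no sequences were used.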

Additional observations from a re-analysis of the deposited data

Results flagged for a closer look

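The long-term and short-term effects of Hg differed, by the test of the difference itself in limma, for 15 WAK genes, each given as the long-term minus the short-term log2 ratio. The difference was positive for Os04g0275100 with 3.05 (adjusted p = 0.000188), Os04g0598800 with 1.82 (adjusted p = 0.00714), Os02g0111600 with 1.82 (adjusted p = 0.00884) and Os12g0595800 with 1.42 (adjusted p = 0.00119). It was lowest for Os02g0807900 with -4.48 (adjusted p = 0.000607), Os09g0561600 with -3.49 (adjusted p = 0.0018) and Os05g0550800 with -3.11 (adjusted p = 0.000283). It was intermediate for Os08g0501200 with -2.21 (adjusted p = 0.0255), Os01g0136400 with -1.94 (adjusted p = 0.00123), Os05g0318100 with -1.93 (adjusted p = 0.00253) and Os08g0501500 with -1.82 (adjusted p = 0.000379). It was closer to 0 for Os12g0614800 with -1.62 (adjusted p = 0.00746), Os10g0112700 with -1.50 (adjusted p = 0.00344), Os01g0364100 with -1.43 (adjusted p = 0.00723) and Os07g0494800 with -1.09 (adjusted p = 0.00602). At long-term exposure Os09g0561600 and Os08g0501200, and at short-term exposure Os04g0275100 and Os02g0111600, were not well above background in either channel, and the control channel was at that level on every short-term array for Os09g0561600 and Os08g0501200, on every long-term array for Os04g0275100, and the Hg channel on every short-term array for Os04g0598800. The sizes and the order of these 5 differences therefore rest on signals near background. The long-term arrays shared a slide that held no short-term array, so that the slide and the exposure time cannot be told apart in any of these values. The call of Os08g0501200 was lost without long-term replicate 2 or 3 and without short-term replicate 3, and that of Os07g0494800 without long-term replicate 3.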

How the results depend on the processing

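With normexp and loess, 1 WAK gene was upregulated and 0 downregulated at long-term exposure and 6 and 0 at short-term exposure. The difference was then positive for 1 and negative for 6 WAK genes, against 5.24% and 7.89% of all genes tested. The medians were then 0.11 and 0.43. All-gene medians moved by 0.072 and 0.15. With the methods' t-test, long-term counts were 1 up and 1 down, against 4.16% and 3.7% of all genes tested. The short-term count up was 4, against 4.22%. Without a fold threshold, long-term counts were 14 up and 8 down, against 28.5% and 35.1% of all genes tested. Short-term counts were then 21 and 5, against 27.6% and 40.8%, and 8 differences were positive and 14 negative, against 26.1% and 23.9%. With each exposure fitted alone 1 gene was downregulated at long-term exposure. Median centring gave medians of 0.29, 0.61 and -0.41 (long-term, short-term, difference), no minimum signal -0.016, 0.18 and -0.22 over 76 loci, the mean of probes 0.57 at short-term exposure and -0.46 for the difference, and the software's log ratio -0.29 for the difference. The cause was not tested. Leaving out 1 array, long-term counts were 5 to 9 up and 1 to 2 down, short-term counts 12 to 13 up and 1 down, differences 4 to 5 positive and 10 to 12 negative, and medians 0.17 to 0.23, 0.49 to 0.58 and -0.50 to -0.22. Without long-term replicate 3, 5 genes were up at long-term exposure, and without replicate 2 or 3, 1 was down. No setting turned the sign of any of the 39 gene calls (39 called values of 23 genes). 11 of them held under every setting, and 14 held under normexp.

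The shared replicate numbers did not pair the arrays. The correlations of same-numbered arrays' deviations were -0.24, 0.02 and -0.18. With a replicate block the difference was called positive for 4 and negative for 11 genes, and long-term and short-term counts were 9 up and 2 down and 12 up and 1 down. Single-exposure fits give no difference, so that alternative was not run for it. Signals near background leave only bounds for some members.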

Other observations

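5 WAK loci with signals under 100 passed the same test when no minimum signal was set, chosen after their values were seen. Os09g0561500 (WAKb), a neighbour of Os09g0561600 by locus number, had short-term signals of 20.7, 50.1 and 70.03 in Hg and 5.68, 4.22 and 10.02 in control roots, with 2 of the 3 Hg signals well above background. Os10g0142600 (WAKL-OS) had short-term signals of 18.2, 59.4 and 41.2 in Hg and 5.48, 8.57 and 9.98 in control roots, with 1 of the 3 Hg signals well above background. Os09g0562600 (WAKb) had short-term signals of 60.5, 82.9 and 87.3 in Hg and 23.7, 49.9 and 27.3 in control roots. Its log2 ratio was -0.29 at long-term exposure and 1.25 at short-term exposure (adjusted p = 0.00284). Os02g0623600 (WAKa) had long-term signals of 32.8, 43.05 and 34.1 in Hg, well above background on all 3 arrays, and 12.9, 14.3 and 6.12 in control roots, where no array was well above background. Os04g0370100 (WAKc) was called lower at long-term exposure with no channel well above background on any array, and no fold is given.

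Among the dim loci without a call, some were well above background in Hg roots. Os11g0553500 (WAKL-OS) had short-term Hg signals of 62.9, 65.1 and 72.1, all well above background, and control signals of 5.91, 75.3 and 19.4, of which only the second was. Os02g0632800 (WAKb) was well above background on the long-term arrays only, on 2 in Hg and on 3 in control roots, with signals of 35.01, 78.4 and 5.39 in Hg and 33.2, 98.8 and 26.4 in control roots. Os11g0565300 (WAKb), which was tested, was also above background on the long-term arrays only. Long-term replicate 3 stood apart in both channels, with signals of 49.2, 64.9 and 239 in Hg and 42.1, 54.1 and 203 in control roots, and its log2 ratios there were 0.22, 0.26 and 0.23.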
